A study of Rattus norvegicus with 12 samples.

Results

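The genes described here make and load the peptides shown on MHC class I molecules, or are GTPases and a transcription factor that interferon gamma induces with them. They are the immunoproteasome subunits Psmb8, Psmb9 and Psmb10, the peptide transporter genes Tap1 and Tap2, the loading factor Tapbp, the class I light chain B2m, the GTPases Igtp and Gbp4, and the transcription factor Irf1. These 10 genes, of the 14217 that the array annotation names, were taken by symbol. All 13 of their probe sets that carry 1 gene symbol were used, of 31042 probe sets tested. A further probe set that names Igtp together with Igtpl1 and Irgm2 was not used. The samples were 12 livers of male Wistar rats, 6 fed maple syrup and 6 fed a sugar mix, aged 5 weeks per the labels. Every rat first had 4 days of a purified basal diet. For the next 11 days the diet held 20% maple syrup in the maple syrup rats, or 20% of a sugar syrup made up to resemble it in the sugar mix rats, and a fast of 16 hours came last. No rat stayed on the basal diet alone, so the comparison is between sources of sugar. The labels state that 7 rats received maple syrup and 8 the sugar mix, and the animals beyond these arrays were not analysed here.

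Proteasomes cut cytosolic proteins into peptides. Interferon gamma, made by T and NK cells, acts in part through IRF1 to induce Psmb8, Psmb9 and Psmb10, which replace the constitutive catalytic subunits encoded by Psmb5, Psmb6 and Psmb7. The TAP transporter, a dimer of Tap1 and Tap2, carries the peptides into the endoplasmic reticulum, where tapasin (Tapbp) holds it close to class I heavy chains that are paired with beta-2-microglobulin (B2m). Igtp and Gbp4 belong to GTPase families of cell-autonomous defence, studied mainly in mice, that act against microbes inside cells. In liver, hepatocytes, endothelial cells and macrophages can all express this programme.

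The promoters of these genes are shown first because most of them hold the same regulatory element. The interferon-stimulated response element is a repeat that IRF factors are known to bind. It was searched as GAAA, any 2 bases and GAAA again, on both strands of RefSeq promoter windows of the rat build GRCr8, from 250 bases before to 50 bases after each gene's start. All 10 genes had a window, and 8 of them held a match, against 3.92% of all 33469 windows. Each stretch below covers 30 bases, is written 5′ to 3′ along the gene's strand, and has the match in capitals. Where the capitals begin with TTTC the match lies on the opposite strand.

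Psmb8 (chr20:4657016-4657045, minus strand): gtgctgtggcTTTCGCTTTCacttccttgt
Psmb10 (chr19:50743346-50743375, minus strand): aagcaaaggcGAAAGTGAAAgagaagatgc
Psmb10 (chr19:50743290-50743319, minus strand): agtggggggtGAAAGCGAAAgtaggaagcg
Tap2 (chr20:4652318-4652347, minus strand): gcagcgaagtGAAAGCGAAAgcccgggacc
Tapbp (chr20:4967881-4967910, minus strand): tttgaggGAAAATGAAAGTGAAAggaaaca
B2m (chr3:129549170-129549199, plus strand): ataagaacatGAAACTGAAAatgggaaagt
Igtp (chr10:42874934-42874963, plus strand): tccaggaaccGAAACTGAAAgcagttctgg
Gbp4 (chr2:233978466-233978495, plus strand): agaagcagggTTTCGATTTCggttcccttt

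Most of the matches lay close to the start of the gene. The first base of the match was 4 bases before the start in Psmb8, 10 in Gbp4, 26 in Tapbp and 41 in Tap2, and 103 and 150 bases before it in Igtp and B2m. In Psmb10 there were 2 matches, 73 and 17 bases before the start, and in Tapbp 2 overlapping matches formed a longer repeat.

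The remaining match was that of Tap1, which shares its upstream region with Psmb9. In the RefSeq gene order of rat chromosome 20, Tap2, Psmb8, Tap1 and Psmb9 are successive protein-coding genes. Tap1 and Psmb9 point away from each other, with 457 bases between their start sites. The Tap1 match lay 121 bases from the Tap1 start and 336 bases from the Psmb9 start, outside the window of Psmb9, in which no match was found. The 250 bases before the Tap1 start (GRCr8, chr20:4668544-4668793, minus strand) are printed with this match and, after it, a match to the NF-kB motif in capitals.

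Tap1: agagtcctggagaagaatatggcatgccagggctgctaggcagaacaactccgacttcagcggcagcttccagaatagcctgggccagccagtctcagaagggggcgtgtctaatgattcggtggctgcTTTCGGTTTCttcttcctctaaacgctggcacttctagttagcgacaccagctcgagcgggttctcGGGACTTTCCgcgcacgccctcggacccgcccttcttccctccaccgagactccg

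The NF-kB motif was found on either strand in 4 of the 10 windows (Tap1, Tapbp, B2m and Irf1), against 7.51% of all windows. The gamma-activated site, an element known from promoters that interferon gamma induces, was searched as TTCNNNGAA on both strands. It was found in the windows of Psmb8, Igtp and Irf1, 3 of the 10, against 8.87% of all windows. Irf1 was thus the gene with a gamma-activated site and no interferon-stimulated response element in its window, and Psmb9 the gene with none of the 3 motifs. The capitals below mark the gamma-activated site, 114 bases before the start of Igtp and 142 bases before that of Irf1. In Igtp it lay just before, and did not overlap, the response element shown above. A match describes the letters of the window only.

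Igtp (chr10:42874922-42874951, plus strand): aaaccagtcacTTCCAGGAAccgaaactga
Irf1 (chr10:38417782-38417811, plus strand): aacagcctgatTTCCCCGAAatgatgaggc

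The measured values are the processed score that the authors deposited. Its levels ran from 5.57 to 15.2 over all probe sets and resemble log2 intensities. The differences between livers were far smaller, with a median standard deviation of 7.13e-06 over the 12 arrays, and they are compressed to a degree that is not known for any single probe set. No fold change is therefore given. Values per animal are standardised, as the number of standard deviations from the mean of that probe set over the 12 livers. A diet difference is given as Hedges' g, which divides the maple syrup minus the sugar mix mean by the spread among animals within a diet. The livers carried their label: all 9 measured hepatocyte markers scored between 13.5 and 15.2, and albumin (Alb), at 15.2, matched the top of the scale. In bulk liver, fewer cells of a type and less RNA per cell cannot be told apart.

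Probe sets of the 10 genes ranged from dim to among the brightest of the array. The level of a probe set also depends on its oligonucleotides, so levels do not rank the genes by mRNA. B2m had a mean score of 13.9 from its brighter probe set, above 99.8% of all probe sets, and 11.1 from the other. Psmb8 and Igtp had mean scores of 9.25 and 9.20, Psmb9, Tapbp, Irf1 and Psmb10 lay between 8.84 and 8.96, Tap1 was at 8.34 and Tap2 at 7.95. Gbp4 was the dimmest gene by its only probe set, at 6.96, above 33.9% of all probe sets. The dimmer probe set of Tap1, at 6.56, stood above only 15.1%.

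Where a gene had 2 probe sets, they were compared over the 12 livers as a description of the probe sets. Those of Igtp varied together (Pearson r = 0.97, Spearman rho = 0.97), as did those of B2m (r = 0.86, rho = 0.86). Those of Tap1 did not (r = 0.15, rho = 0.18), and its results below rest on the brighter one. The unused probe set that names Igtp with its relatives had r = 0.17 and 0.15 with the Igtp probe sets.

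No gene of this group passed the test between diets. With limma and Benjamini-Hochberg adjustment over all 31042 probe sets, 0 of 13 probe sets of these genes were called, where 0% of all probe sets were called, and the adjusted p was 0.9998 for each. All 10 genes nevertheless had a lower mean with maple syrup, against 52.9% of all 14217 genes, and so had all 13 probe sets, against 51.4% of all probe sets. Their median g was -0.86, against -0.04 over all genes. The count depended on the scaling. With each array's median subtracted, 7 of the 10 genes were lower with maple syrup, against 1006 of all 14217 genes. Tap2, Tapbp and B2m were then higher, and the median g of the 10 genes was -0.46, against 0.36 over all genes. Neither this count nor this median is a like comparison with all genes. Array medians spanned 0.000169, against a median standard deviation of 7.13e-06 over probe sets, so the subtraction moves most genes by a shared offset. Psmb8, Psmb9, Psmb10, Tap1, Igtp and Irf1 had standard deviations above that span, so the offset turns them less easily. The contrast under this scaling therefore does not set the group apart. With quantile normalization 8 of 9 were lower, against 7777 of the 13253 genes with a value, Tap2 was higher and B2m had no value left. The median g of these 9 was -1.14, against -0.15 over all genes. These genes were chosen with earlier results of these data known and vary together, so this count has no test. The diets overlapped in all 13 probe sets, and 0.11% of all probe sets had diets that did not overlap. Without sugar mix replicate 2, the liver with the highest values, 9 of the 10 genes had the lower maple syrup mean, against 51.1% of all genes, and the median g was -0.68, against -0.01.

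**Figure D1:**
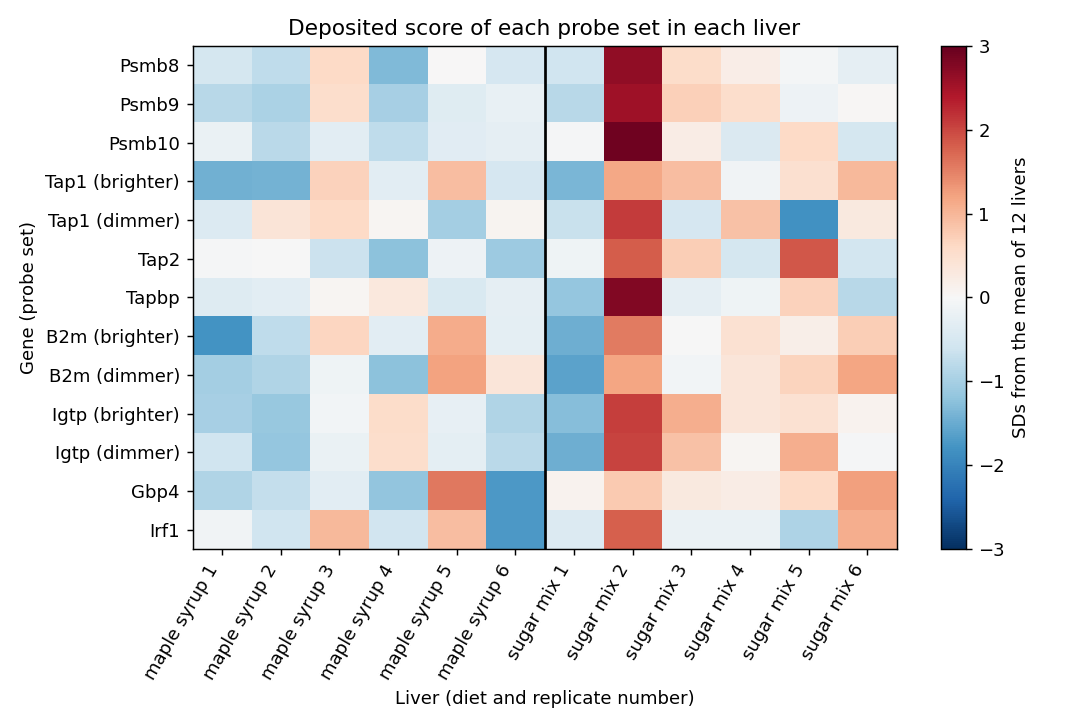
Standardised deposited score (colour, in standard deviations from the mean of the 12 livers) of each of the 13 probe sets in each liver, maple syrup livers left of the black line and sugar mix livers right of it. Sugar mix replicate 2 was the highest of the 12 livers in 8 of the 10 genes by their brighter probe set, and its values ran from 0.79 to 2.92.

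Psmb8 encodes the inducible counterpart of Psmb5, the subunit with chymotrypsin-like activity. In deposited scores its maple syrup livers had a lowest value of 9.2439, a median of 9.2471 and a highest value of 9.2515, against 9.2468, 9.2494 and 9.2597 in sugar mix livers. Standardised, these were -1.32, -0.51 and 0.60 with maple syrup and -0.60, 0.07 and 2.65 with the sugar mix. Sugar mix replicate 2 stood far above every other liver, the next of which was a maple syrup liver, and the remaining animals of the 2 diets overlapped. Matching each maple syrup animal with each sugar mix animal gave 36 pairs, and maple syrup was higher in 10. Psmb8 had a g of -0.81 (95% interval -1.89 to 0.31), with an unadjusted p of 0.145 in limma.

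Psmb9 encodes the counterpart of Psmb6. Its standardised values were -1.0, -0.60 and 0.54 (lowest, median and highest) with maple syrup and -0.82, 0.28 and 2.54 with the sugar mix. The pattern over livers was nearly that of Psmb8, with maple syrup replicate 4 lowest and sugar mix replicate 2 highest. Maple syrup was higher in 6 of 36 pairs, and g was -0.95 (95% interval -2.06 to 0.19; limma unadjusted p = 0.0917). With quantile normalization its g was -1.56.

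Psmb10 encodes the counterpart of Psmb7. Its values were -0.82, -0.34 and -0.19 with maple syrup and -0.52, 0.08 and 2.92 with the sugar mix. All 6 maple syrup livers lay below the mean of the 12, within a narrow band, while the sugar mix livers were spread by a single high animal, replicate 2. Its g was -0.90 (95% interval -2.0 to 0.23), with 8 of 36 pairs higher with maple syrup. The exact permutation test of the difference in means over all 924 arrangements, two-sided, gave p = 0.0519, and an adjusted p of 1 over all probe sets.

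Tap2, with Tap1 a chain of the peptide transporter, had values of -1.24, -0.41 and -0.01 with maple syrup and -0.54, 0.30 and 1.85 with the sugar mix. No maple syrup liver reached the mean of the 12, and sugar mix replicates 5 and 2 were high while 3 other sugar mix livers lay among the maple syrup values. Its g was -1.12 (95% interval -2.25 to 0.06; limma unadjusted p = 0.0545). The brighter Tap1 probe set had values of -1.43, -0.41 and 0.92 with maple syrup and -1.36, 0.70 and 1.16 with the sugar mix. Both diets held low livers, maple syrup replicates 1 and 2 and sugar mix replicate 1, and the sugar mix group otherwise leaned high. The g of Tap1 was -0.65 (95% interval -1.72 to 0.45) from this probe set and -0.08 (95% interval -1.13 to 0.96) from the dimmer one. From the brighter probe set it was -1.15 without sugar mix replicate 1 and -0.45 without maple syrup replicate 1.

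Tapbp had values of -0.46, -0.30 and 0.31 with maple syrup and -1.17, -0.20 and 2.79 with the sugar mix. The medians of the diets nearly coincided, and sugar mix replicate 2 lay far above the rest. Its g of -0.32 (95% interval -1.37 to 0.74) became 0.28 without that liver, which turned its direction, and -0.59 without sugar mix replicate 1. With quantile normalization it was -1.51. For B2m the brighter probe set had values of -1.80, -0.31 and 1.11 with maple syrup and -1.46, 0.31 and 1.56 with the sugar mix. Each diet spanned almost the whole range, and the low livers were replicate 1 of either diet. The g of B2m was -0.44 (95% interval -1.49 to 0.63) and -0.53 (95% interval -1.58 to 0.55) from its 2 probe sets. For the brighter one it was -0.17 without maple syrup replicate 1, -0.21 without sugar mix replicate 2, -0.73 without maple syrup replicate 5 and -0.86 without sugar mix replicate 1.

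Igtp, an interferon-induced GTPase of the IRG family, had values of -1.14, -0.58 and 0.55 with maple syrup and -1.28, 0.41 and 2.08 with the sugar mix. Sugar mix replicate 1 was the lowest of all livers and replicate 2 the highest, and 5 of the 6 sugar mix livers were above the mean against 1 of 6 with maple syrup. Its g was -0.95 (95% interval -2.05 to 0.19) and -0.83 (95% interval -1.91 to 0.30) from its 2 probe sets. Without sugar mix replicate 1, the lowest liver, the brighter one gave -1.64. Irf1 had values of -1.73, -0.34 and 0.97 with maple syrup and -0.93, -0.20 and 1.80 with the sugar mix. Its diets overlapped throughout, with g = -0.34 (95% interval -1.38 to 0.73), and with single livers left out its g lay between -0.56 (without maple syrup replicate 3) and -0.05 (without sugar mix replicate 2). With quantile normalization it was -1.14, and with array medians subtracted -0.22.

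Gbp4, a guanylate-binding protein gene, differed from the others in which animal stood out. Its values were -1.72, -0.81 and 1.59 with maple syrup and 0.12, 0.45 and 1.23 with the sugar mix. The sugar mix livers lay close together above the mean, 5 maple syrup livers lay below all of them, and maple syrup replicate 5 was the highest of all 12. The g of Gbp4 was -1.16 (95% interval -2.30 to 0.02), with 6 of 36 pairs higher with maple syrup. It was -0.35 with array medians subtracted and -0.63 with quantile normalization. As deposited, Gbp4 had a limma unadjusted p of 0.0462 and alone among these genes was under 0.05, as 2.15% of all probe sets were in this direction. Its exact permutation p was 0.0541, and 0 of the 13 probe sets were under 0.05 by that test, against 4.03% of all. Maple syrup replicate 5 was the only maple syrup liver not below all sugar mix livers, so leaving it out separates the diets by construction. Without it the diets did not overlap in any of the 30 remaining pairs, and g was -2.95. The unadjusted limma p was then 0.00028 and the adjusted p still 0.9997, and these values follow from that choice of liver. How many of all probe sets separate without that liver was not counted.

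**Figure D2:**
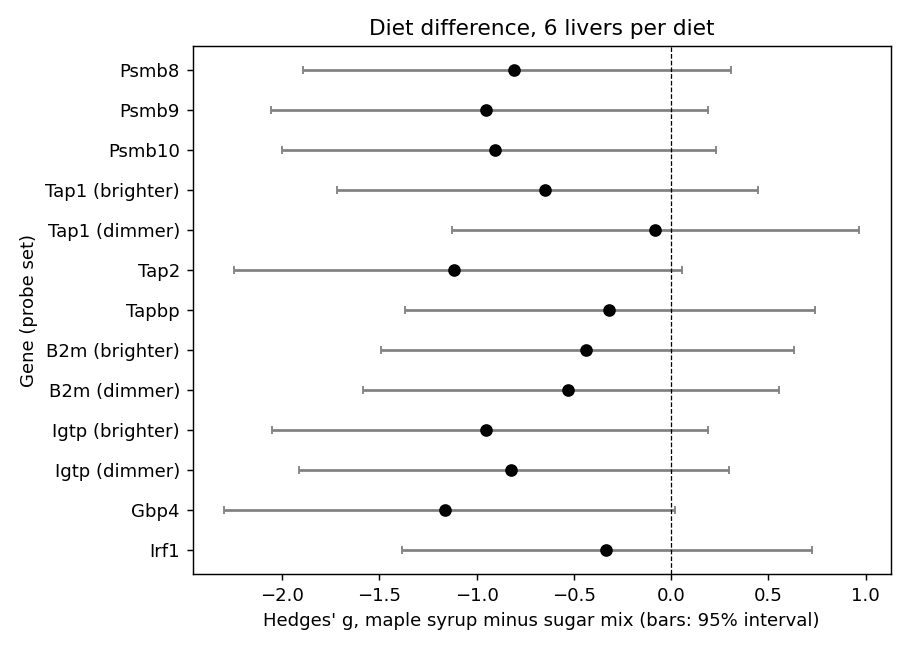
Hedges' g (maple syrup minus sugar mix, points) with its 95% interval (bars) for the 13 probe sets, 6 livers per diet. All 13 points lie below 0, from -1.16 for Gbp4 to -0.08 for the dimmer Tap1 probe set, and every interval includes 0. With array medians subtracted, Tap2, Tapbp and B2m lie above 0.

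**Figure D3:**
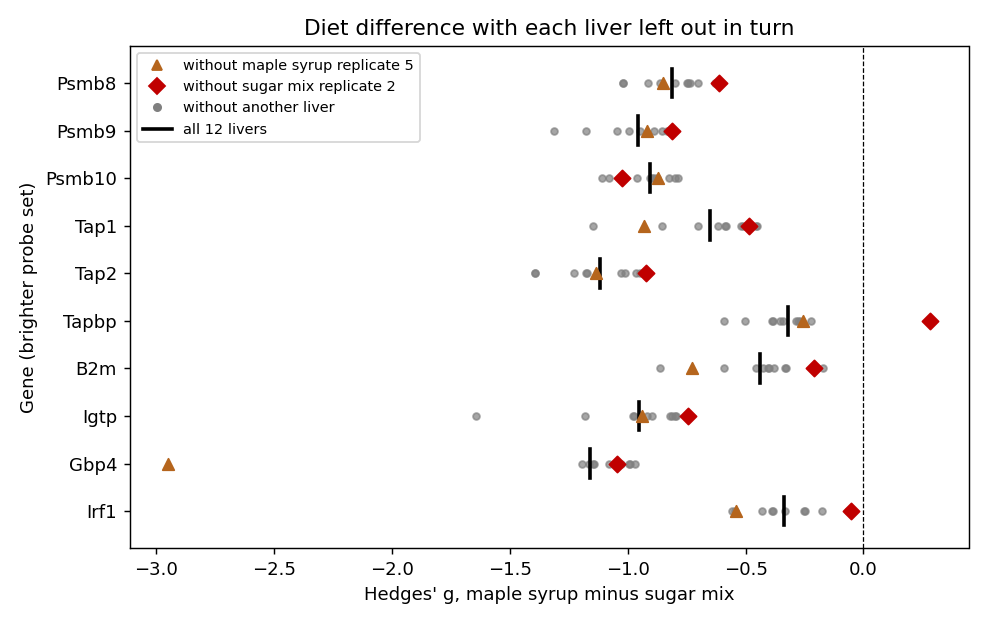
Hedges' g of the brighter probe set of each gene with each liver left out in turn (points), beside its value over all 12 livers (black bars). Leaving out maple syrup replicate 5 moves Gbp4 to -2.95, and leaving out sugar mix replicate 2 moves Tapbp to 0.28 and Irf1 to -0.05. Leaving out sugar mix replicate 1 moves Igtp to -1.64, Tap1 to -1.15 and B2m to -0.86.

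Single animals carried much of the pattern. The mean standardised value of the 10 genes was -0.72, -0.75, 0.21, -0.59, 0.30 and -0.75 in maple syrup replicates 1 to 6. In sugar mix replicates 1 to 6 it was -0.72, 2.01, 0.41, 0.03, 0.37 and 0.20. In 4 of 6 maple syrup livers the genes were low together, sugar mix replicate 1 was as low as these, and sugar mix replicate 2 was by far the highest. That liver had the highest value of all 12 in 8 of the 10 genes, against 10.3% of all genes, and lay above the mean in all 10. By array as a whole it was not set apart, with the highest value in 8.5% and the lowest in 7.93% of all probe sets. With each liver left out in turn, the median g of the 10 genes stayed between -1.08 and -0.68.

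Most of these genes varied together from liver to liver. With each diet's mean subtracted, the Pearson correlation over the 12 livers was above 0 in all 45 pairs of the 10 genes. The median r was 0.60, against 0.0052 over all pairs of the 14217 genes. In 28 of the 45 pairs r was at least 0.5, against 7.43% of all gene pairs. Without sugar mix replicate 2 the median r was 0.33, against 0.0039 over all gene pairs, and the pairs at or above 0.5 numbered 15, against 8.48% of all gene pairs. It was 0.14 over the 12 livers with quantile normalization. The median r was 0.28 within the maple syrup livers and 0.67 within the sugar mix livers, which include that animal. These values describe genes chosen for a shared function, on arrays they share.

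Psmb8 and Psmb9, neighbours on chromosome 20 on either side of Tap1, were the closest pair. Over the 12 livers r was 0.97 and rho was 0.94, with permutation p of 1e-05 and 2e-05. The first is the smallest p that 100000 resamples can give. Among the 31041 other probe sets, that of Psmb8 had the largest Pearson correlation with Psmb9 over the 12 livers. Counting Psmb8 itself, 5 probe sets were at least as correlated by Spearman's rho, 259 with quantile normalization, 377 within maple syrup livers and 30 without the 2 livers named next. The adjusted p over these correlations was 0.31 for r and 0.155 for rho. Both permutation p were at or next to the smallest that the resamples can give. The adjusted p could then pass only if several other probe sets came as low, so it cannot decide on this pair. Without the 2 livers farthest from the median of Psmb9, sugar mix replicates 2 and 3, r was 0.88. With quantile normalization r was 0.78. Within diets r was 0.89 in maple syrup livers (exact permutation p = 0.00972, n = 6) and 0.98 in sugar mix livers (exact permutation p = 0.00278, n = 6).

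Psmb9 and Tap1, which share an upstream region, had r = 0.69 and rho = 0.78 (permutation p = 0.00648 and 0.00399; adjusted p = 0.664 and 0.678). Without the same 2 livers r was 0.67, and within diets it was 0.69 with maple syrup and 0.67 with the sugar mix. With quantile normalization it was 0.10 (permutation p = 0.749), so the relation did not hold under that scaling. Psmb9 and Irf1 had r = 0.60 and rho = 0.52 (permutation p = 0.0347 and 0.0835; adjusted p = 0.836 and 0.891). Their r was 0.36 without those 2 livers and 0.31 without sugar mix replicate 2 alone, so it rested largely on that animal. Within diets it was 0.43 with maple syrup and 0.73 with the sugar mix.

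In 3 other pairs the correlation was weaker. Tap1 and Tap2 had r = 0.34 and rho = 0.15 (permutation p = 0.275 and 0.648; adjusted p = 0.842 and 0.985), with r = -0.25 within maple syrup livers and 0.43 within sugar mix livers. Igtp and Gbp4 had r = 0.42 and rho = 0.36 (permutation p = 0.179 and 0.247; adjusted p of 1 for both), with r = 0.19 and 0.34 within maple syrup and sugar mix livers. B2m and Tapbp had r = 0.54 and rho = 0.31 (permutation p = 0.0697 and 0.321; adjusted p = 0.876 and 0.935), with r = 0.11 and 0.73 within maple syrup and sugar mix livers. Without the 2 livers farthest from the median of the first gene r was 0.45, 0.42 and 0.47 in these pairs. Scaling moved them too: with array medians subtracted r was 0.06 for Tap1 with Tap2 and 0.07 for Igtp with Gbp4, and with quantile normalization it was 0.58 and 0.12 for the same pairs. Without sugar mix replicate 2 it was 0.18 for Tap1 with Tap2 and 0.26 for B2m with Tapbp. These were the 6 pairs tested, and none passed after adjustment on the values as deposited. For Psmb9 with Psmb8 the number of resamples left almost no way to pass, so the adjusted p does not decide on that pair.

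Which other pairs depended on sugar mix replicate 2 is given as a description, with diet means subtracted. Tap1 and B2m had r = 0.90 with that liver and 0.90 without it, and Gbp4 and Irf1 had 0.69 with it and 0.76 without it. Psmb10 and Tapbp had r = 0.88 with it and 0.37 without it, and Psmb9 and Psmb10 had 0.76 with it and 0.15 without it. The 3 inducible catalytic subunits were thus high together in 1 animal, while over the other 11 only Psmb8 and Psmb9 stayed close.

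**Figure D4:**
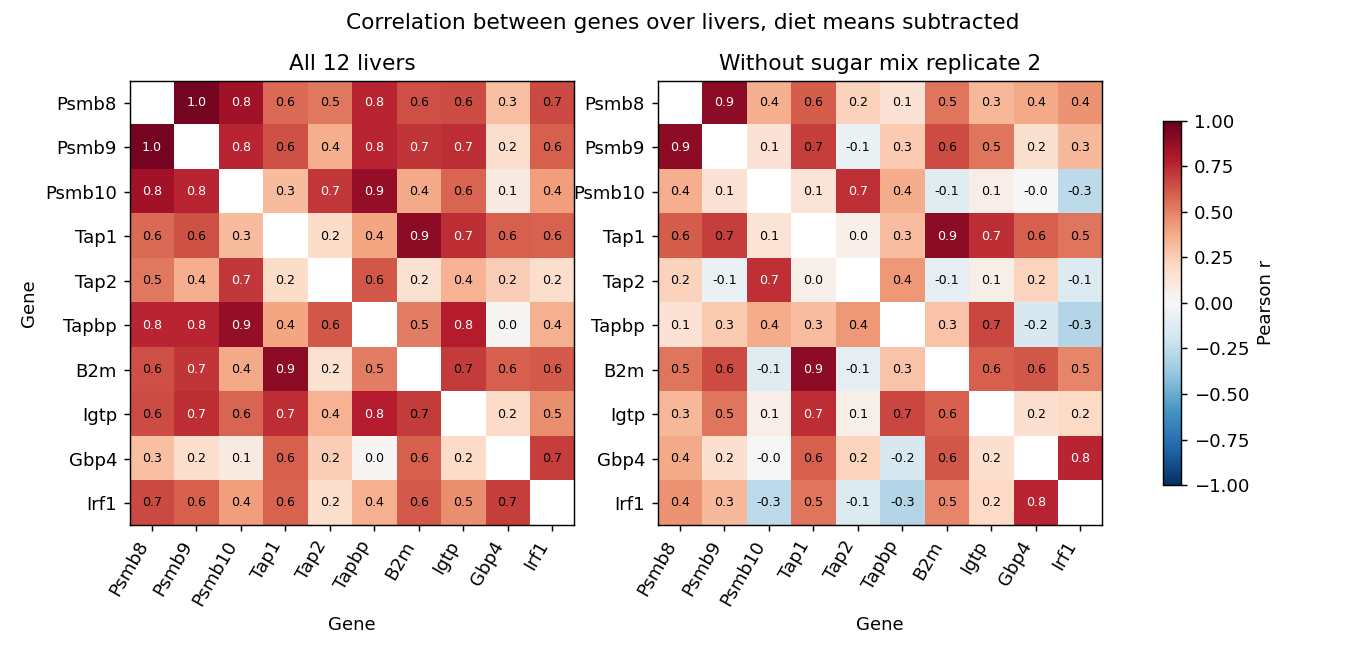
Pearson r between the 10 genes over livers, with diet means subtracted, over all 12 livers (left) and without sugar mix replicate 2 (right). Psmb8 with Psmb9 and Tap1 with B2m stay strongly correlated in both panels, while most correlations of Psmb10 and Tapbp shrink in the right one.

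The genes outside the group whose pattern was most like the mean of the 10, over 12 livers with diet means subtracted, were Psme2 (r = 0.88), Gzma (0.87), Crxos1 (0.87), Cxcl10 (0.86) and Prkag1 (0.85). Psme2 encodes a subunit of the PA28 proteasome activator, Gzma the granzyme of cytotoxic lymphocytes, Cxcl10 an interferon-induced chemokine and Prkag1 a subunit of AMP-activated kinase. Without sugar mix replicate 2 Cxcl10 kept r = 0.87 and ranked 12 of 14207 genes, while the others had r between 0.61 and 0.72 and ranked 178 to 515. Of the 4 that had a promoter window, Psme2, Gzma and Cxcl10 held the response element, against 3.92% of all windows. A link between the element and the pattern over livers was not tested.

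The rest of the pathway was counted from lists, and none of its genes passed the test between diets. Genes whose spread is small beside the gap in array medians can turn with the scaling whatever their g, as Tap2 did from -1.12 to 0.08. With array medians subtracted 13211 of the 14217 genes were higher with maple syrup. List medians under that scaling are therefore read beside the 0.36 of all genes, and much of them can be this shared offset. The constitutive catalytic subunits Psmb5 (g = -0.76) and Psmb7 (g = -0.31) also had lower means with maple syrup, and higher ones with array medians subtracted (median g 0.28). Their values in sugar mix replicate 2 were 1.71 and 1.08, and their promoter windows, with that of Psmb6, held no response element. The PA28 subunits Psme1 (g = -0.64) and Psme2 (g = -0.51) were highest of all livers in sugar mix replicate 2, at 2.72 and 2.84, whereas Pomp, which helps to assemble proteasomes, was at 0.22 there (g = -0.14). With array medians subtracted all 3 were higher with maple syrup, with a median g of 0.32. Of these 5 proteasome genes, the values of that liver were highest in the activator subunits. Of the 4 activator and chaperone genes with a promoter window, 1 held the response element, Psme2.

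Class I heavy chains and other loading factors were lower with maple syrup in 9 and higher in 4 of the 13 that were measured, with a median g of -0.23 (0.13 with array medians subtracted and 0.02 with quantile normalization). RT1-CE5 (g = -0.25), RT1-S3 (g = -0.23), RT1-M3-1 (g = -0.08) and RT1-T24-4 (g = 0.30) are rat class I genes. Class I genes are near-identical, so their probe sets may share signal. Sugar mix replicate 2 was highest in 4 of the 13. Other interferon-induced GTPases had 5 of 6 members lower, with a median g of -0.26 (-0.13 with array medians subtracted and -0.16 with quantile normalization). Irgm2 (g = -0.85) and Irgm (g = -0.74) belong to the family of Igtp, and Gbp2 (g = -0.16) and Gbp7 (g = 0.03) to that of Gbp4. Irgm2 was at -0.13 with array medians subtracted. The response element was found in the windows of 5 of 9 genes of this list, against 2 of 14 of the class I and loading list, 1 of 6 of interferon gamma signalling and 1 of 5 of the chemokines and enzymes.

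Genes of interferon gamma signalling were split, with 5 of 9 lower and 4 higher and a median g of -0.10 (0.33 with array medians subtracted and 0.28 with quantile normalization). The receptor chains Ifngr1 and Ifngr2 had g = -0.32 and 0.69, and the kinases Jak1 and Jak2 had g = 0.21 and -0.10. Chemokines and enzymes that interferon gamma induces had 4 of 5 lower, with a median g of -0.61 (0.04 with array medians subtracted and -0.50 with quantile normalization). The chemokines Cxcl9, Cxcl10 and Cxcl11, ligands of CXCR3 on T cells, had g = -0.61, -0.93 and -1.15, and Ido1, a tryptophan-degrading enzyme, had g = -0.34. Cxcl11 had a limma unadjusted p of 0.0479, as 1 of the 5, where 4.07% of all probe sets were under 0.05. As deposited, the receptor and kinase genes thus lay on both sides of 0 and the 3 chemokines below it. With array medians subtracted all 4 receptor and kinase genes were above 0, and so were Cxcl10 (0.04) and Ido1 (0.33).

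**Figure D5:**
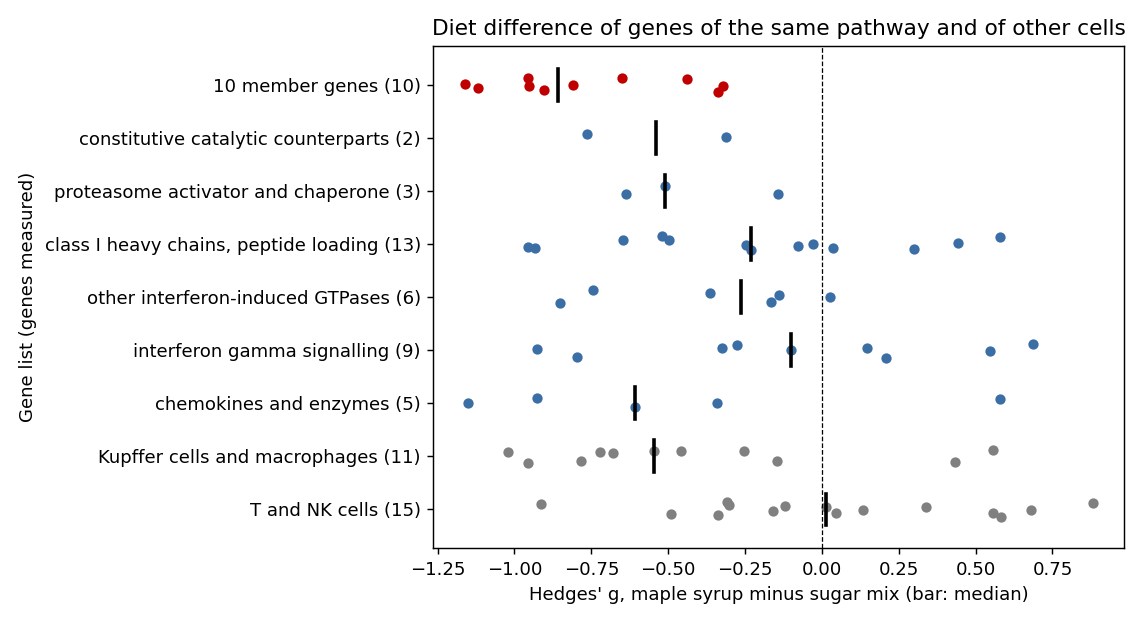
Hedges' g (maple syrup minus sugar mix) of every measured gene (points) in the group described here (red), in 6 lists of the same pathway (blue) and in markers of 2 kinds of immune cell (grey), with the median of each list as a black bar. The medians run from -0.86 in the 10 genes to -0.10 in interferon gamma signalling and 0.01 in T and NK cell markers. With array medians subtracted only the 10 genes, the other GTPases and the Kupffer cell markers keep a median below 0. The median of all genes is then 0.36, and the medians of all 6 pathway lists lie below it. Genes with a large spread are moved less by this subtraction, so this is not a like comparison.

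Markers of other liver cells were read beside these values, and their part in the result was not tested. Kupffer cell and macrophage markers had 9 of 11 measured members lower with maple syrup and a median g of -0.54 (-0.11 with array medians subtracted and -0.19 with quantile normalization). Their mean standardised value ran from -1.32 to 0.62 in maple syrup livers and from -0.18 to 0.94 in sugar mix livers. Sugar mix replicate 2 was the highest of these. It had the top value of all livers in 6 of the 11, among them C1qa, C1qb and C1qc, against 10.3% of all genes. The other markers of this list ran there from -0.94 (Cd14) to 0.94 (Clec4f). T and NK cell markers had 7 of 15 lower and a median g of 0.01 (0.36 with array medians subtracted and -0.60 with quantile normalization), with mean values from -0.92 to 0.44 in maple syrup livers and from -0.64 to 0.69 in sugar mix livers. Sugar mix replicate 2 was again the highest, with Gzma at 2.17, Nkg7 at 1.62 and Cd3d at 1.60, each the highest of the 12 livers. The other 12 markers of this list ran there from -0.78 (Cd3e) to 1.45 (Cd2). Interferon gamma itself (Ifng) was dim, with a score of 6.48, and was at 0.21 in that liver.

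B and plasma cell markers had 1 of 4 lower, and 2 of 4 with quantile normalization (mean values from -0.24 to 0.74 with maple syrup and from -1.25 to 0.99 with the sugar mix). Dendritic cell markers had 3 of 3 lower (0 of 3 with array medians subtracted and 2 of 3 with quantile normalization), and sugar mix replicate 2 was their lowest sugar mix liver, at -0.75. Sinusoidal endothelial markers had 1 of 7 lower, and hepatocyte markers 4 of 9 (0 of either list with array medians subtracted, and 4 of 6 endothelial markers with quantile normalization, which left no value for the hepatocyte markers), with sugar mix replicate 2 at -0.67 and -0.06. Albumin (g = 0.60), counted as higher among the hepatocyte markers, stood at either -0.96 or 0.96 in every liver, so its direction rests on a single step of the score. The deposited score does not reach 0 for any probe set. The least bright marker lists, of T and NK, B and plasma, and dendritic cells, had levels between 6.5 and 8.48.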

How the data were processed

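Per the labels' protocols, biotin-labelled cRNA from 12 rat livers was read on Affymetrix arrays, 1 per rat. The deposited table holds the authors' processed score for 31099 probe sets; how it was summarized, normalized and scaled is not stated in the sources used here. Control probe sets (57) were dropped. Names came from the platform annotation (20826 probe sets with 1 symbol, 436 with several, 9780 unnamed here). The brightest probe set stands for a gene. The diet test was that of limma 3.58.1 under R 4.3.3 (intensity trend, two-sided, adjusted p of 0.05 over 31042 probe sets) and by exact permutation. Intervals of g are from the noncentral t distribution; pairs of genes were tested with 100000 resamples. The fit was also run on simulated data of independent probe sets, which the real ones are not, so no result rests on that run. Promoters are RefSeq, GRCr8. Members and lists were chosen with earlier results of these data known. Named were all 10 members, the first 4 measured genes of each pathway list, and the 5 most similar genes; other pairs and genes, such as Ifng and the cell markers, were named after their values were seen. The rescaling of pathway and marker lists was chosen after seeing the data. The number of arrays limits the precision.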

Additional observations from a re-analysis of the deposited data

Results flagged for a closer look

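Among 26 combinations of a probe set and a diet, 2 were flagged for an animal far from the other 5 of its diet. Chance gives 1.3 if probe sets are independent, which those of the same livers are not. Both were sugar mix replicate 2, with a gap of 0.64 of the diet's range for Psmb8 and 0.68 for Psmb10. Smaller gaps, such as that of Gbp4 in maple syrup replicate 5, were not flagged. Psmb8 was at 2.65 standard deviations in that liver, and the next sugar mix liver was at 0.56. Psmb10 was at 2.92 (2.925 before rounding), and the next sugar mix liver was at 0.59.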

How the results depend on the processing

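No probe set was called under any alternative run, which were quantile normalization, subtraction of array medians, 1 probe set per gene, removal of the dimmest 30%, no intensity trend, weights per array, blocks of equal replicate numbers, each liver left out, and exact permutation. The smallest p that exact permutation can give is 0.00216. Over 31042 probe sets it can call any only if very many reach that p together, so its 0 calls add little. At an unadjusted p under 0.05, limma counted 1264 probe sets and the permutation test 1252. Array medians spanned 0.000169, more than the standard deviation of 4 of the 10 genes, so rescaling can turn such genes. With array medians subtracted the moderated t became 0.14 for Tap2, 0.13 for Tapbp and 0.60 for B2m, and 7 of 10 genes were lower with maple syrup. With quantile normalization, under which B2m was constant and was left out, t was 0.11 for Tap2 and 8 of 9 genes were lower. With a liver left out, t of Tapbp ran from -1.11 to 0.53 (without sugar mix replicate 2), and the count of lower genes was 9 or 10. The median correlation of the 10 genes was 0.28 within maple syrup livers and 0.14 under quantile normalization, and 0.33 to 0.63 with a liver left out. Tap1 with Tap2 had r = -0.25 within maple syrup livers. With array medians subtracted 1 of the 6 tested pairs passed, B2m with Tapbp (r = 0.76, permutation adjusted p = 0.0277). It passed since the subtracted medians then made up most of the variation of B2m. Counting Tapbp itself, 26721 of the 31041 other probe sets were then at least as correlated with B2m, so the call does not set this pair apart. Replicate numbers did not pair the livers (correlations of deviations from -0.04 to 0.13), and with the replicate block 0 probe sets were called and the median g was -0.74. The cause of the other shifts was not tested.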
